A study of Mus musculus with 2 samples.

Results

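The cells described here are colonic epithelial cells of the mouse in which the messenger RNA of Lgr5 was detected, the group that holds the stem cells of the crypt base. They were chosen on 3 genes. A cell needed at least 1 unique molecular identifier (UMI, a tag that counts 1 captured RNA molecule) of Lgr5, fewer than 20 UMIs of the goblet mucin Muc2 per 10000, and no UMI of the tuft cell channel Trpm5. Before that, barcodes under 5000 UMIs or above 25% mitochondrial UMIs were dropped. The rule found 454 cells among 9329 kept cells, 53 of them in the GFP library and 401 in the whole epithelium library.

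For the GFP library, c-Kit-creERT2;Rosa26-mTG mice were given 1 intraperitoneal injection of tamoxifen at 1 mg per 20 g body weight, and their cells were sorted for GFP. In these mice the recombinase is driven by Kit, so GFP marks cells in which Kit was active at the time of tamoxifen, and their progeny. The whole epithelium library came from c-Kit-creERT2 mice with no treatment and no sort, so the driver allele is shared by both groups and the reporter, the drug and the sort are not. There was 1 library per group, how many mice stand behind each is not known here, and no difference between the libraries has a replicate check or a test.

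As background, Lgr5 is a receptor for R-spondins, secreted proteins that raise Wnt signalling by keeping the ubiquitin ligases Rnf43 and Znrf3 from removing Wnt receptors. Cells at the base of colonic crypts with this receptor divide, renew themselves and give rise to the colonocytes, goblet cells and endocrine cells above them, with Ascl2 as a transcription factor of the stem cell state. Kit-positive goblet-like cells, called deep crypt secretory cells, lie between these stem cells in the mouse colon.

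The GFP library held 13575 barcodes with 150348319 UMIs, of which 3963 barcodes (29.2%) were kept, and the whole epithelium library held 13967 barcodes with 164185392 UMIs, of which 5366 (38.4%) were kept. In the deposited records each count matrix stands under the sample whose barcode list has the other length, so each matrix was given to the sample whose barcode list matched its number of columns. All directions between libraries rest on that. The libraries also differed in sex-linked RNA. Xist, the RNA of the inactive X, was at 1444 CPM (UMIs of a gene summed over a group of cells, scaled to the group's total) in Lgr5-detected cells of the GFP library and had no UMI in those of the whole epithelium library. Ddx3y, a Y-linked gene, had no UMI in the 53 cells of the GFP library and was at 42.4 CPM in those of the whole epithelium library, so sex, treatment and sort cannot be told apart. The libraries shared 60 barcodes, among them none of the Lgr5-detected cells of the GFP library and 4 of those of the whole epithelium library. Doublets were not called. By marker counts set after the values were seen, 4 of the 53 cells of the GFP library and 24 of the 401 of the whole epithelium library carried RNA of another class, mostly surface colonocyte RNA (3 and 14 cells).

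Lgr5 (chromosome 10, 115450311 to 115587780, minus strand, build GRCm38/mm10) chose the cells, so its values are a description. Lgr5-detected cells made up 1.34% of kept cells in the GFP library (53 of 3963, 95% interval 1.00 to 1.75) and 7.47% in the whole epithelium library (401 of 5366, 6.78 to 8.21). Intervals of shares are exact Clopper-Pearson, those of summed counts exact Poisson and those of ratios exact binomial, and all cover counting error only. With every cell thinned to 5000 UMIs, the same rule found 0.555% in the GFP library (0.348 to 0.839) and 3.43% in the whole epithelium library (2.96 to 3.95). In the GFP library 27 cells had 1 Lgr5 UMI, 15 had 2, and 11 had 3 or more, up to 6. In the whole epithelium library 192 cells had 1, 75 had 2, and 134 had 3 or more, up to 11. Depth was alike, with medians of 25243 UMIs and 5202 genes per cell in the GFP library and 25034 UMIs and 4887 genes in the whole epithelium library. At the thresholds, the Lgr5-detected cell nearest below the Muc2 limit had 19.3 Muc2 UMIs per 10000 in the GFP library and 19.6 in the whole epithelium library, and the Lgr5-containing cell nearest above it had 21.2 in the GFP library and 20.3 in the whole epithelium library. The shallowest cells inside had 5714 UMIs in the GFP library and 5385 in the whole epithelium library, and the deepest Lgr5-containing barcodes outside had 2249 and 4091.

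Lgr5 detection in mucin-low cells with the proliferation marker Mki67 was above that in surface colonocytes, which should lack it. Mucin-low cells here are kept cells under the Muc2 limit with no Trpm5, 2941 in the GFP library and 4529 in the whole epithelium library. Surface colonocytes, taken as mucin-low cells with at least 2 UMIs each of Krt20 and Clca4a, are far from the crypt base. An Lgr5 UMI was found in 0.432% of them in the GFP library (3 of 695 cells, median 18539 UMIs) and in 2.52% in the whole epithelium library (14 of 556 cells, median 13868 UMIs). Among mucin-low cells with a UMI of the proliferation marker Mki67 the counts were 37 of 1192 in the GFP library and 228 of 1594 (14.3%) in the whole epithelium library. Among mucin-low cells without one the share was 0.915% in the GFP library (16 of 1749) and 5.89% in the whole epithelium library (173 of 2935), so 37 of the 53 and 228 of the 401 Lgr5-detected cells had Mki67. The surface share was itself lower in the GFP library, and in each of the 5 cell groups plotted the share was smaller there.

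**Figure D1:**
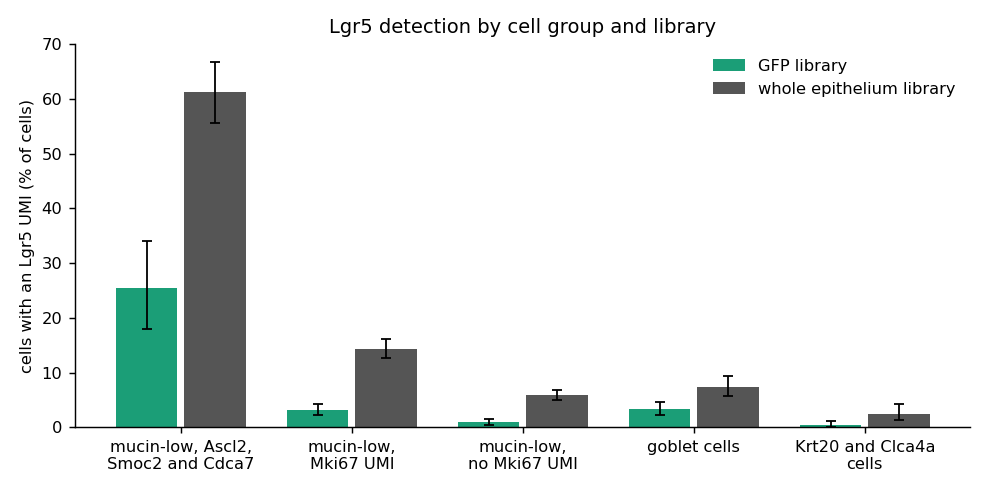
Share of cells with at least 1 Lgr5 UMI (percent, bars, with exact 95% intervals) in 5 groups of kept cells, GFP library left of whole epithelium library in each pair. The share is highest in cells with UMIs of Ascl2, Smoc2 and Cdca7, at 25.4% in the GFP library and 61.3% in the whole epithelium library, and lowest in surface colonocytes.

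Genes that the rule did not use bore out the label in both libraries. Ascl2 was detected in 64.2% of Lgr5-detected cells of the GFP library and 5.82% of the 2888 Lgr5-negative mucin-low cells, and in 56.9% against 6.01% of 4128 cells in the whole epithelium library. Smoc2, which encodes a secreted matrix protein enriched in intestinal stem cells, was in 84.9% against 12.6% in the GFP library and 76.8% against 11.3% in the whole epithelium library. Cdca7, a Myc target tied to the cell cycle, was in 90.6% against 40.5% in the GFP library and 85.8% against 33.4% in the whole epithelium library. All 3 genes were found together in 58.5% of Lgr5-detected cells of the GFP library (31 of 53) and 3.15% of Lgr5-negative cells, and in 48.1% (193 of 401) against 2.96% in the whole epithelium library. None of the 3 was found in 3 Lgr5-detected cells of the GFP library and 31 of the whole epithelium library. Thinned to 5000 UMIs, Smoc2 was in 35.8% of Lgr5-detected and 4.09% of Lgr5-negative cells of the GFP library, and in 37.9% against 3.59% in the whole epithelium library.

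Ascl2 and Smoc2 were set against the number of Lgr5 UMIs per cell. Among cells of the whole epithelium library, Ascl2 was found in 45.8% of the 192 cells with 1 Lgr5 UMI, 62.7% of the 75 with 2 and 69.4% of the 134 with 3 or more. Smoc2 was found in 61.5%, 86.7% and 93.3% of the same groups. With these cells thinned to 5000 UMIs, Ascl2 was in 20.3% (14.9 to 26.7), 21.3% (12.7 to 32.3) and 25.4% (18.3 to 33.6), intervals that overlap. Smoc2 was in 25.5% (19.5 to 32.3), 46.7% (35.1 to 58.6) and 50.7% (42.0 to 59.5), where the interval at 1 Lgr5 UMI lies below the other two. The share with none of the 3 label genes was 15.1% at 1 Lgr5 UMI, 2.67% at 2 and 0% at 3 or more, where 0 of 134 was found. In the GFP library Ascl2 was found in 63.0% of 27 cells, 66.7% of 15 and 63.6% of 11, with intervals that overlap throughout. Smoc2 was found there in 77.8%, 93.3% and 90.9% (thinned, 18.5%, 60.0% and 45.5%), and the 3 cells with none of the label genes all had 1 Lgr5 UMI. Median depth was 24559, 27093 and 25209 UMIs at 1, 2 and 3 or more Lgr5 UMIs in the whole epithelium library.

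**Figure D2:**
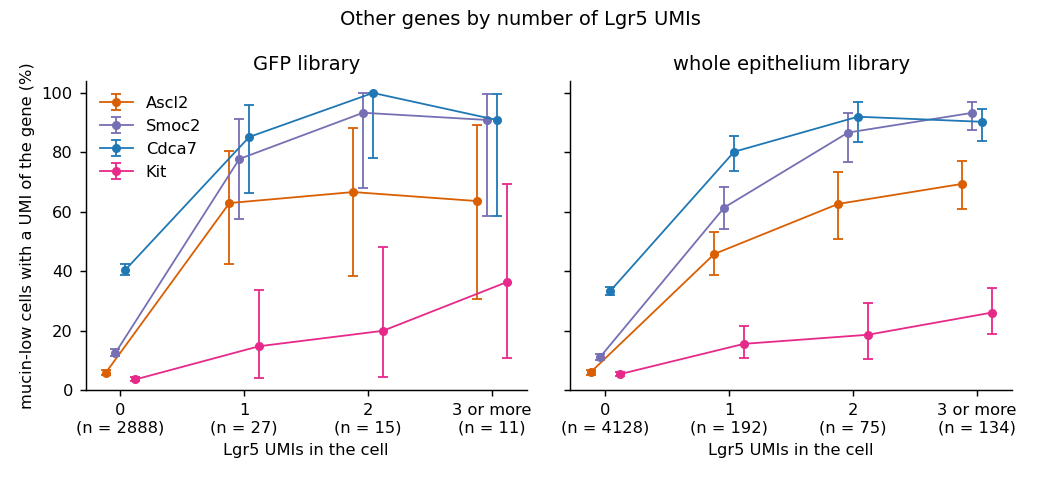
Share of mucin-low cells (percent, with exact 95% intervals) in which Ascl2, Smoc2, Cdca7 and Kit were detected, by the number of Lgr5 UMIs in the cell, GFP library left and whole epithelium library right. Ascl2 and Smoc2 step up sharply between 0 and 1 Lgr5 UMI in both libraries, and in the whole epithelium library go on to 69.4% and 93.3% at 3 or more.

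The stem cell programme stood out from the Lgr5-negative mucin-low cells in both libraries. A gene was taken as higher or lower at a 2-fold difference in CPM, among genes with a mean of at least 20 CPM over the groups compared. By that rule 11.3% of 5888 genes tested were higher and 8.58% lower in Lgr5-detected cells of the GFP library, and 5.02% of 5718 were higher and 7.21% lower in those of the whole epithelium library. Of the 24 listed stem cell genes 13 were tested in each library with Lgr5 left out. In the GFP library 11 were higher and 1 lower (median log2 ratio 2.25, against 0.17 for all genes tested), and in the whole epithelium library 11 were higher and none lower (median 1.89, against 0.05). Genes that passed the abundance filter could do so through the Lgr5-detected cells alone, which favours such counts, and Igfbp4, Mex3a and Bmi1 fell short of it.

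Smoc2 (chromosome 17, 14279506 to 14404790, plus strand) was at 121 CPM in Lgr5-detected cells and 10.1 CPM in Lgr5-negative mucin-low cells of the GFP library (log2 ratio 3.59, 3.35 to 3.82), and at 109 against 9.52 CPM in the whole epithelium library (3.51, 3.39 to 3.63). Ascl2 (chromosome 7, 142966829 to 142969264, minus strand) was at 51.9 against 4.08 CPM in the GFP library (3.67, 3.29 to 4.03) and at 51.8 against 4.91 CPM in the whole epithelium library (3.40, 3.22 to 3.57). Both genes had almost the same level in Lgr5-detected cells of either library. Slc12a2, a sodium, potassium and chloride cotransporter abundant at the crypt base, was at 694 against 136 CPM in the GFP library (2.35) and 586 against 125 CPM in the whole epithelium library (2.24). Hopx, a marker of slow-cycling and colonic crypt base cells, was at 154 against 32.4 CPM (2.25) and 81.6 against 25 CPM (1.71), in the GFP and the whole epithelium library in that order. Sox9, a transcription factor of crypt progenitors, was at 276 against 65.7 CPM in the GFP library (2.07) and 222 against 76.2 CPM in the whole epithelium library (1.54). Aqp4, a water channel, went the other way, at 276 against 774 CPM in the GFP library (-1.49) and 186 against 364 CPM in the whole epithelium library (-0.97).

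Targets and feedback genes of Wnt signalling were higher as well. In the GFP library 8 of 12 tested were higher and 1 lower (median 2.04), and in the whole epithelium library 7 of 11 were higher and none lower (median 1.66). Axin2 (chromosome 11, 108920349 to 108950783), a feedback inhibitor induced by the pathway, was at 77.2 against 16.3 CPM in the GFP library (log2 ratio 2.25, 1.96 to 2.52) and 55.3 against 10.7 CPM in the whole epithelium library (2.38, 2.23 to 2.52). Sox4, a transcription factor of progenitors, was at 529 against 74.7 CPM (2.82) in the GFP library and 318 against 73.8 CPM (2.11) in the whole epithelium library. Myc was at 78.5 against 19.6 CPM in the GFP library (2.00) and 59.2 against 16.2 CPM in the whole epithelium library (1.87). Tcf7l2, the pathway's DNA-binding factor, was at 93.8 against 212 CPM in the GFP library (-1.17) and 104 against 182 CPM in the whole epithelium library (-0.80). Some genes often named as targets were scarce in the Lgr5-detected cells, with Lef1 and Notum without a UMI in the GFP library and Apcdd1 and Dkk2 without one in either library.

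Among receptors the picture was mixed. Of the Wnt and R-spondin receptors, Rnf43, the ubiquitin ligase that Lgr5 holds in check, was the member called higher in both libraries (38.6 against 11.8 CPM in the GFP library, and 31.4 against 9.92 CPM in the whole epithelium library). Lgr4, the broadly used relative of Lgr5, was at 49.3 against 63.0 CPM in the GFP library and 65.0 against 86.3 CPM in the whole epithelium library, a difference under 2-fold. Ephb3, a receptor that keeps cells at the crypt base, was at 62.6 against 6.41 CPM in the GFP library (3.29, 2.95 to 3.61), and in the whole epithelium library it was at 32.4 against 5.76 CPM but under the abundance filter. Its ligand gene Efnb2, which is high towards the surface, was at 10.6 against 72.3 CPM in the GFP library (-2.76, -3.57 to -2.06) and 26.7 against 79.2 CPM in the whole epithelium library (-1.57, -1.74 to -1.40). Notch1 was at 81.2 against 15.3 CPM in the GFP library (2.41) and 57.1 against 17.0 CPM in the whole epithelium library (1.75), and the Notch target Hes1 was at 343 against 165 CPM (1.06) and 451 against 250 CPM (0.85) in the same order. Of 10 tested genes of BMP signalling, which restrains stem cells, Rgmb was higher in both libraries (2.00 in the GFP library and 1.82 in the whole epithelium library). The BMP targets Id1 and Id3 were lower in the GFP library, with log2 ratios of -1.42 and -1.44, and were under 2-fold in the whole epithelium library, at 485 against 729 CPM and 161 against 322 CPM. Areg, an EGF receptor ligand, was at 35.3 against 225 CPM in the GFP library (-2.67) and 148 against 398 CPM in the whole epithelium library (-1.42), while Lrig1, an inhibitor of the same receptor, was higher in both (2.40 in the GFP library and 1.94 in the whole epithelium library).

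Outside the stem cell list, Trf, Rgcc and Fut9 were among the 10 highest in both libraries, ranked among genes with an interval wholly past 2-fold. Trf (chromosome 9, 103204001 to 103230444), which encodes the iron carrier transferrin, was at 142 against 10.5 CPM in the GFP library (log2 ratio 3.75, 3.52 to 3.97) and 50.3 against 4.92 CPM in the whole epithelium library (3.35, 3.18 to 3.53). It was found in 28 of the 53 cells of the GFP library and 105 of the 401 of the whole epithelium library. Rgcc, a regulator of the cell cycle, was at 162 against 12.6 CPM (3.69) and 80.1 against 12.9 CPM (2.63), and Fut9, a fucosyltransferase, at 94.5 against 11.1 CPM (3.09) and 57.9 against 9.91 CPM (2.55), each with the GFP library before the whole epithelium library. In the GFP library Prelp (3.36), Ttr (3.04), Cldn14 (3.00) and Nav2 (2.96) were also among the 10 highest. In the whole epithelium library Clca3b (445 against 78.5 CPM, 2.50), the Wnt target Cd44 (2.31) and the neutrophil antigen gene Cd177 (2.27) were among the 10 highest. Of the genes tested in both libraries (5470), 544 were higher in the GFP library and 262 in the whole epithelium library, and 249 were higher in both, which is 45.8% of those in the GFP library and nearly all in the whole epithelium library. None went in opposite directions.

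Genes of mature cells were lower. Of the colonocyte genes 14 of 15 tested were lower in the GFP library (median -2.35) and 15 of 16 in the whole epithelium library (median -2.14). Car1, a carbonic anhydrase, was at 1094 against 7557 CPM in the GFP library (-2.79) and 1177 against 5416 CPM in the whole epithelium library (-2.20). Krt20, a keratin of mature cells, was at 130 against 795 CPM in the GFP library (-2.61) and 125 against 576 CPM in the whole epithelium library (-2.21). Of the hormone and granule genes of endocrine cells 5 of 6 tested were lower in the GFP library and 5 of 5 in the whole epithelium library. Chga was at 1.33 against 47.3 CPM in the GFP library (-5.15), and Pyy, peptide YY, was at 9.80 against 326 CPM in the whole epithelium library (-5.06). Of the interferon response genes 8 of 17 were lower and 1 higher in the GFP library, and 9 of 19 were lower in the whole epithelium library. Higher was Iigp1, an interferon-induced GTPase, at 157 against 43.5 CPM in the GFP library (1.85, 1.65 to 2.04) and 145 against 138 CPM in the whole epithelium library (0.07). Ly6a, a gene of repairing epithelium, was at 158 against 926 CPM in the GFP library (-2.55) and 232 against 872 CPM in the whole epithelium library (-1.91). Markers of other tissues were nearly absent: no gene of the tuft, T and NK cell, B and myeloid or stromal lists passed the abundance filter, and the rule on Trpm5 itself limits the tuft list, which had 4 UMIs in the GFP library and 41 in the whole epithelium library. The 12 T and NK cell genes had no UMI in the 53 cells of the GFP library and 85 UMIs in the 401 cells of the whole epithelium library, where 342 cells had none. Mitochondrial UMIs moved with the cell groups, with medians of 4.71% in Lgr5-detected and 10.3% in Lgr5-negative cells of the GFP library and 6.39% against 8.43% in the whole epithelium library. Their part in these differences was not tested.

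**Figure D3:**
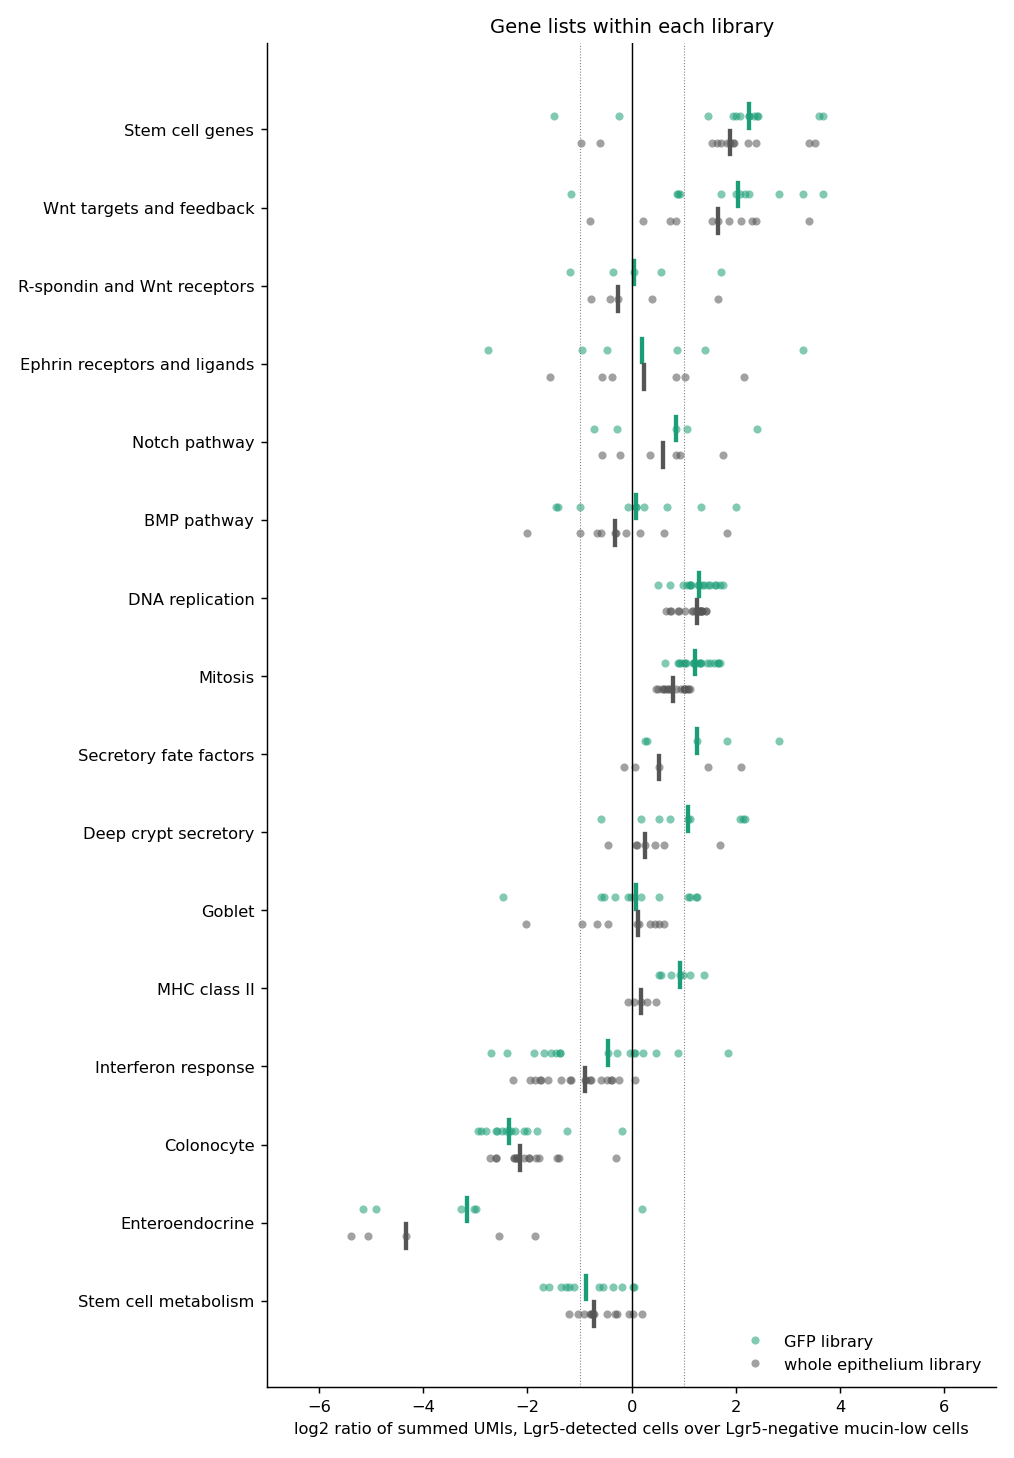
Log2 ratio of summed UMIs in Lgr5-detected over Lgr5-negative mucin-low cells, 1 point per tested gene and a bar at the median, GFP library above whole epithelium library in each list; dotted lines mark 2-fold. Stem cell and Wnt genes lie to the right with medians of 2.25 and 2.04 in the GFP library, and colonocyte genes to the left with -2.35.

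Genes of the secretory lineage were also higher in the GFP library, with 3 of 5 tested secretory fate factors (median 1.25) and 5 of 9 tested deep crypt secretory genes (median 1.07) past 2-fold. For the whole epithelium library the counts were 2 of 5 (median 0.53) and 1 of 7 (median 0.25). Foxa3, a transcription factor of goblet cells, was higher in both, with log2 ratios of 1.84 in the GFP library and 1.46 in the whole epithelium library. Of the deep crypt secretory genes higher in the GFP library, Spink4 and Agr2 fell under 2-fold by the mean of per-cell CPM (0.67 and 0.91). Spink4 was also at 0.74 without cells carrying markers of another class, and Agr2 at 0.75 without the 5% of cells with most UMIs. Cell cycle genes were higher as well. All 17 tested DNA replication genes were above 0 in the GFP library, 14 of them by 2-fold (median 1.30), and 13 of 18 were higher by 2-fold in the whole epithelium library (median 1.26). Mitosis genes were higher in 16 of 20 in the GFP library (median 1.22) and in 7 of 18 in the whole epithelium library (median 0.80). Against Lgr5-negative mucin-low cells with Mki67 (1155 in the GFP library and 1366 in the whole epithelium library), 3.03% of 5971 genes were higher and 4.04% lower in the GFP library, and 1.35% of 5773 were higher and 0.935% lower in the whole epithelium library. In that comparison none of 18 DNA replication genes and none of 20 mitosis genes reached 2-fold in the GFP library, and none of 19 and 20 in the whole epithelium library. Mitosis genes were then above 0 for 17 of 20 in the GFP library (median 0.28) and below 0 for 20 of 20 in the whole epithelium library (median -0.34). Every comparison cell was chosen to have Mki67, itself a mitosis gene, but only 37 of the 53 and 228 of the 401 Lgr5-detected cells had it. That choice bears on the ratios of cycle genes, which are no measure of cycling in Lgr5-detected cells. Stem cell genes were still higher in 11 of 13 in each library, with medians of 1.67 in the GFP library and 1.36 in the whole epithelium library. Wnt genes were higher in 8 of 12 in each, with medians of 1.48 and 1.30. Ascl2 was at 51.9 against 6.66 CPM in the GFP library (2.96, 2.57 to 3.34) and 51.8 against 7.30 CPM in the whole epithelium library (2.83, 2.63 to 3.03). Haemoglobin genes led that comparison in the whole epithelium library by rank, but 2315 of the 2324 UMIs of Hbb-bs came from 1 cell.

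The Lgr5-detected cells were split by Mki67 after the values were seen. Stem cell genes differed little in the whole epithelium library, where none of 13 was higher, 1 was lower and 11 were below 0. Their median log2 ratio of the 228 over the 173 cells was -0.13, with 1.96% of 5719 genes higher and 0.367% lower. All 18 tested mitosis genes were higher there (median 4.05), which the choice of Mki67 brings with it. Of 14 stem cell genes tested in the GFP library, 2 were higher, none lower and 9 above 0 (median 0.13). In the GFP library the 16 cells without Mki67 held 300176 UMIs in all, against 1202324 in the 37 cells with it, and 11 of 15 colonocyte genes were lower in the 37 cells (9 of 14 without the 4 cells carrying markers of another class), with 6.59% of 5980 genes higher and 4.90% lower. Car1 was at 516 CPM in the 37 cells with Mki67 and 3411 CPM in the 16 without (-2.73, -2.87 to -2.58), where 1 cell gave more of its UMIs than the other 15 together. Without the carrying cells it was at 521 CPM in 36 cells with Mki67 and 972 CPM in 13 without (-0.90, -1.13 to -0.66), under 2-fold. In the whole epithelium library Car1 stood at -0.38 in the same split. Within the whole epithelium library, the 209 cells with 2 or more Lgr5 UMIs had lower colonocyte genes than the 192 with 1, with 14 of 14 below 0 and 4 past 2-fold (12 of 12 below 0 and none past 2-fold without cells carrying markers of another class), where 0.122% of 5758 genes were higher and 0.347% lower. Car4 was at 58.2 CPM in cells with 2 or more and 147 CPM in cells with 1 (-1.34), and -0.88 without the carrying cells. Fabp6, a bile acid binding protein gene, was at 85.3 against 23.9 CPM (1.83), but 1 cell gave 49.6% of its UMIs and by the mean of per-cell CPM the log2 ratio was 0.57.

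Kit, whose promoter drives the recombinase, was detected in 20.8% of Lgr5-detected cells of the GFP library (11 of 53, 10.8 to 34.1) and 3.64% of Lgr5-negative mucin-low cells (105 of 2888). In the whole epithelium library it was in 19.7% (79 of 401, 15.9 to 23.9) against 5.45% (225 of 4128). In surface colonocytes it was in 2.88% in the GFP library and 3.06% in the whole epithelium library, at lower depth. Thinned to 5000 UMIs, Kit was in none of the 53 cells of the GFP library (0 to 6.72%). It was in 6.23% of the 401 cells of the whole epithelium library (4.07 to 9.07), and the intervals overlap. Summed, Kit was at 15.3 against 1.70 CPM in the GFP library (log2 ratio 3.17, 2.46 to 3.82) and 10.8 against 3.90 CPM in the whole epithelium library (1.47, 1.16 to 1.76), under the abundance filter in both. Most Kit-containing cells were goblet cells, 74.3% of 501 in the GFP library and 61.2% of 820 in the whole epithelium library, where goblet means at least 20 Muc2 UMIs per 10000. Lgr5-detected mucin-low cells made up 2.20% of Kit-containing cells in the GFP library (1.10 to 3.89) and 9.63% in the whole epithelium library (7.70 to 11.9). Kitl, which encodes the ligand of Kit, was at 88.5 against 61.7 CPM in the GFP library and 80.0 against 69.8 CPM in the whole epithelium library, under 2-fold in both.

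The 79 Kit-containing cells among the Lgr5-detected cells of the whole epithelium library carried more RNA of deep crypt secretory cells than the 322 without Kit. The split was made after the values were seen, and 0.363% of 5787 genes were higher and 0.190% lower in it. Of 9 tested deep crypt secretory genes 6 were higher, Kit among them through the split itself (median 1.54), and 4 of 9 (median 0.97) without cells carrying markers of another class. Tff3, a trefoil peptide of mucus, was at 253 CPM in Kit-containing cells and 33.1 CPM in the others (log2 ratio 2.94, 2.73 to 3.14). Spink4, a protease inhibitor of goblet cells, was at 805 against 149 CPM (2.43, 2.33 to 2.53, and 1.74 without the carrying cells), and Cbfa2t3, a transcriptional corepressor, at 39.2 against 2.23 CPM (4.14, 3.43 to 4.91). Cbfa2t3 passed the abundance filter only through the Kit-containing cells. It fell short of the filter without the carrying cells (34.9 against 1.98 CPM) and by the mean of per-cell CPM (29.7 against 2.89). Stem cell genes hardly moved, with none of 13 past 2-fold and a median of 0.20. Saa1 and Reg3b, defence genes of colonocytes, were lower, at 183 against 430 CPM and 2696 against 6035 CPM. By the mean of per-cell CPM Reg3b was at -0.84, under 2-fold. Without the carrying cells 8 of 12 tested colonocyte genes were lower (median -1.69), against 2 of 13 (median -0.30) with them.

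To compare the libraries without choosing cells on Lgr5, mucin-low cells with at least 1 UMI each of Ascl2, Smoc2 and Cdca7 were taken, a gate set after the values were seen. It held 122 cells of the GFP library (median 28409 UMIs) and 315 cells of the whole epithelium library (median 27487 UMIs), or 3.08% and 5.87% of kept cells. An Lgr5 UMI was found in 31 of the 122 cells of the GFP library (25.4%, 18.0 to 34.1) and 193 of the 315 cells of the whole epithelium library (61.3%, 55.6 to 66.7). Thinned to 5000 UMIs the shares were 8.20% in the GFP library and 29.2% in the whole epithelium library. Lgr5 was at 14.7 CPM in the GFP library and 57.2 CPM in the whole epithelium library (log2 ratio -1.95, -2.36 to -1.57). Axin2 and Slc12a2, which the gate did not use, were close. Axin2 was at 58.5 CPM in the GFP library and 59.5 CPM in the whole epithelium library (-0.02, -0.25 to 0.20). Slc12a2 was at 619 CPM in the GFP library and 566 CPM in the whole epithelium library (0.13, 0.06 to 0.20). Kit, also not used by the gate, was at 8.60 CPM in the GFP library and 13.5 CPM in the whole epithelium library (-0.65, -1.23 to -0.10). The gate required Ascl2, Smoc2 and Cdca7 in every cell, so their ratios in it are no comparison. Over all mucin-low cells, where nothing was required of them, Ascl2 was at 5.05 CPM in the GFP library and 9.61 CPM in the whole epithelium library (-0.93, -1.10 to -0.76), and Smoc2 at 12.3 and 19.5 CPM (-0.66, -0.77 to -0.55). Among the same cells the log2 ratio was -0.18 for Cdca7, -0.22 for Slc12a2 and 0.21 for Axin2 (0.10 to 0.31). Within the gate, Mki67 was at 265 CPM in the GFP library and 155 CPM in the whole epithelium library (0.77, 0.66 to 0.89). Over all mucin-low cells Mki67 was at 115 and 93.3 CPM (0.30, 0.26 to 0.34). Over 7 alternatives within this gate the log2 ratio of Lgr5 ran from -2.26 to -1.81. With other gates it was -2.11 in mucin-low cells with Ascl2, -2.38 in those with Smoc2 and -2.69 in all mucin-low cells. With at least 2 UMIs of each gate gene, 34.9% of cells of the GFP library and 72.1% of the whole epithelium library had an Lgr5 UMI. With 1 library per group, whether this holds across animals was not tested.

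**Figure D4:**
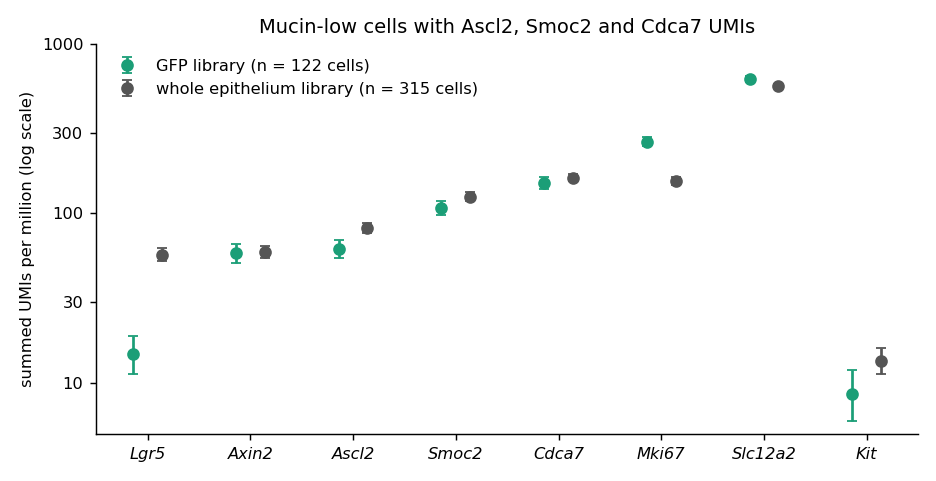
CPM (log axis, exact Poisson 95% intervals) of 8 genes in mucin-low cells with UMIs of Ascl2, Smoc2 and Cdca7, GFP library left of whole epithelium library for each gene. Lgr5 is at 14.7 against 57.2, while Axin2, at 58.5 against 59.5, is level.

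Lgr5-detected cells of the GFP library carried more RNA of goblet and deep crypt secretory products and of MHC class II than those of the whole epithelium library. Over 5913 genes tested, 1.76% were higher and 1.42% lower in the GFP library, and in Lgr5-negative mucin-low cells 1.13% of 5479 were higher and 1.50% lower. Deep crypt secretory genes were higher in 8 of 9 (median log2 ratio 1.44) and goblet genes in 8 of 12 (median 1.37). In Lgr5-negative mucin-low cells the counts were 3 of 9 (median 0.79) and 5 of 12 (median 0.81). Both lists hold Retnlb, which the next paragraph does not read as expression. These counts also include genes that were no higher in Lgr5-detected than in Lgr5-negative mucin-low cells of the GFP library. Ang4, in both lists, was at 91.8 CPM in Lgr5-detected and 139 CPM in Lgr5-negative mucin-low cells there. The goblet gene Clca1 was at 141 and 147 CPM in the same order. Reg4, given below, was higher in Lgr5-detected cells. Mptx1, a deep crypt secretory gene, fell to 0.89 without cells carrying markers of another class and to 0.17 with at least 2 Lgr5 UMIs. Agr2, in both lists, fell to 0.76 without the 5% of cells with most UMIs. None of 13 stem cell genes and none of 12 Wnt genes reached 2-fold, with medians of 0.24 and 0.31 against 0.10 for all genes tested.

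Retnlb (chromosome 16, 48816856 to 48818892), a resistin-like product of goblet cells, was at 1117 CPM in Lgr5-detected cells of the GFP library and 33.3 CPM in those of the whole epithelium library (log2 ratio 5.07, 4.91 to 5.23). In Lgr5-negative mucin-low cells it was at 991 CPM in the GFP library and 30.9 CPM in the whole epithelium library (5.00, 4.95 to 5.05). Every one of the 53 cells had Retnlb UMIs, and the median per cell was 23 in them, 20 in Lgr5-negative mucin-low cells, 19 in surface colonocytes and 508 in goblet cells of the GFP library. Muc2, on which the rule sets a limit, likewise had a median of 5.15 UMIs per 10000 in Lgr5-detected, 5.12 in Lgr5-negative and 5.63 in surface cells of the GFP library, and 1.33, 1.32 and 1.73 in those of the whole epithelium library. Retnlb was thus at nearly the same level in surface colonocytes as in Lgr5-detected cells, and its value in Lgr5-detected cells was not read as expression. For Muc2 the rule capped all of these groups. The source of this RNA was not tested.

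Reg4, a marker of deep crypt secretory cells, did not follow that even level. It was at 184 CPM in Lgr5-detected, 43.7 CPM in Lgr5-negative mucin-low and 27.3 CPM in surface cells of the GFP library, and at 42.8, 40.4 and 24.3 CPM in those of the whole epithelium library. Against Lgr5-negative mucin-low cells its log2 ratio was 2.08 in the GFP library (1.89 to 2.25) and 0.08 in the whole epithelium library (-0.06 to 0.22). It was found in 34 of the 53 cells of the GFP library and 74 of the 401 of the whole epithelium library, with 28.9% of its UMIs in 1 cell of the GFP library and 18.1% in 1 cell of the whole epithelium library. Thinned to 5000 UMIs, Reg4 was in 30.2% of Lgr5-detected and 12.9% of Lgr5-negative cells of the GFP library, and in 5.99% against 7.95% in the whole epithelium library. Atoh1, the transcription factor that sets the secretory fate, was found in 16 of the 53 cells of the GFP library (30.2%) and 39 of the 401 cells of the whole epithelium library (9.73%), and in 9.14% and 6.37% of Lgr5-negative mucin-low cells. Thinned, it was in 7.55% and 3.24% of the Lgr5-detected cells.

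MHC class II genes, which present antigen, were higher in the GFP library in 7 of 7 tested (median 2.68), and in 6 of 6 in Lgr5-negative mucin-low cells (median 1.86). Cd74, the invariant chain, was at 2005 CPM in Lgr5-detected cells of the GFP library and 328 CPM in those of the whole epithelium library (2.61, 2.54 to 2.68), and in Lgr5-negative mucin-low cells at 1184 and 347 CPM (1.77). H2-Eb1 was at 499 against 72.8 CPM in Lgr5-detected cells (2.78), and within the GFP library at 499 CPM in Lgr5-detected and 190 CPM in Lgr5-negative mucin-low cells (1.39, 1.28 to 1.50). Cd74 was under 2-fold between these cell groups in either library. H2-Ab1, higher in Lgr5-detected cells of the GFP library, fell to 0.88 by the mean of per-cell CPM and to 0.94 scaled by the median of ratios. Surface colonocytes of the GFP library had Cd74 at 1329 CPM and goblet cells at 659 CPM. Markers of cells that present antigen by profession were at or near 0 in the 53 cells, with 4 UMIs in all over the 10 B and myeloid genes.

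Genes lower in the GFP library included defence and stress genes. Reg3b, an antibacterial lectin, was at 470 CPM in Lgr5-detected cells of the GFP library and 5343 CPM in those of the whole epithelium library (-3.51, -3.62 to -3.40), and at -2.89 in Lgr5-negative mucin-low cells. Ifi27l2b, an interferon response gene, was at 26.0 against 322 CPM in Lgr5-detected cells (-3.63), and at -4.14 in Lgr5-negative mucin-low cells. Of 14 tested interferon response genes 5 were lower in Lgr5-detected cells of the GFP library. Of 22 immediate early and heat shock genes, which respond to dissociation, 20 were below 0 and 3 lower by 2-fold (median -0.68). Atf3 was at 154 CPM in the GFP library and 488 CPM in the whole epithelium library (-1.66), and the EGF receptor ligand Hbegf at 68.6 against 324 CPM (-2.24). All 20 tested mitosis genes were above 0 in the GFP library with none past 2-fold (median 0.69), while 15 of 19 DNA replication genes were below 0 (median -0.36). In Lgr5-negative mucin-low cells these medians were 0.30 and -0.37.

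**Figure D5:**
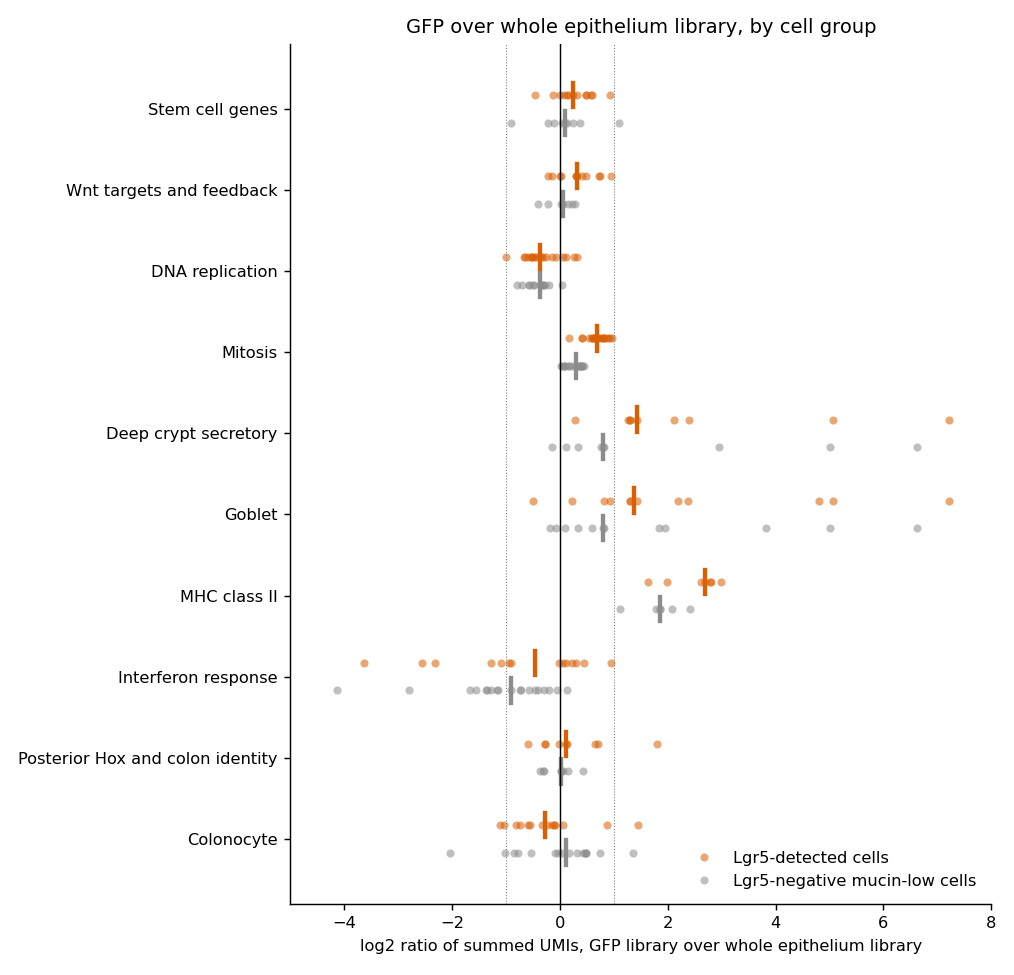
Log2 ratio of summed UMIs in the GFP library over the whole epithelium library, 1 point per tested gene and a bar at the median, Lgr5-detected cells above Lgr5-negative mucin-low cells in each list; dotted lines mark 2-fold. MHC class II genes lie to the right in both cell groups, with medians of 2.68 and 1.86, and stem cell genes lie near 0.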

How the data were processed

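Colonic epithelial cells were released with EDTA and TrypLE and captured on the 10x platform, per the labels' protocols. The authors deposited raw UMI counts per gene and barcode, with 31053 genes measured. Per the submitters' processing notes the build was mm10 and Cell Ranger 2.1.1 was used, while the file headers name 3.1.0; other steps are not given in the sources used here. The members and lists were chosen with earlier results of these data known.

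UMIs were summed over the cells of a group and divided by the group's total (CPM). With 1 library per group no test was run. A gene was tested at a mean of at least 20 CPM and called at 2-fold; a group with no UMI was set to a floor of 3 UMIs. Lists were 26 in number. Genes named were the members of the lists and, in each direction, the 10 with the largest ratio among those with an interval wholly past 2-fold. Lgr5, Muc2, Trpm5, mitochondrial genes and predicted genes were left out of these 10. For thinned shares each cell was drawn down to 5000 UMIs. Gene positions are from GENCODE vM21. The calculation was tested on simulated data. Python 3.11.15, numpy 2.4.6, scipy 1.17.1, pandas 2.3.3 and matplotlib 3.10.9 were used. Filters, limits on Muc2 and Lgr5, scaling and cells that carry other markers were varied.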

Additional observations from a re-analysis of the deposited data

Results flagged for a closer look

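Lgr5 UMIs were also found outside the cells described. Of barcodes removed by the filters, 27 of 9612 in the GFP library and 58 of 8601 in the whole epithelium library had one, mostly at high mitochondrial share (23 and 40 barcodes). Of kept cells over the Muc2 limit, 33 of 982 in the GFP library and 60 of 806 in the whole epithelium library had one.

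Tnfsf10, a death ligand of the TNF family, was called in opposite directions in Lgr5-detected and Lgr5-negative mucin-low cells when the libraries were compared. Its log2 ratio of the GFP library over the whole epithelium library was 1.00 in Lgr5-detected cells (0.70 to 1.29) and -1.05 in Lgr5-negative mucin-low cells (-1.16 to -0.95). Both intervals reach under 2-fold. The difference was not tested.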

How the results depend on the processing

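No paired analysis was possible because there was 1 library per group, and no library could be left out. The share of Lgr5-detected cells in the GFP library was 2.17% with at most 10% mitochondrial UMIs, 0.631% with Muc2 under 5 per 10000, 0.656% with at least 2 Lgr5 UMIs and 0.555% thinned. In the whole epithelium library it was 8.76% at a minimum of 10000 UMIs, 5.93% at 2000, 9.98% with at most 10% mitochondrial UMIs, 3.89% with at least 2 Lgr5 UMIs and 3.43% thinned.

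Counts of genes followed the abundance filter, given as higher and lower at a mean of 5 CPM, at 50 CPM and with no filter. Against Lgr5-negative mucin-low cells they were 1488 and 798, 264 and 286, and 2879 and 1080 in the GFP library, and 720 and 649, 121 and 241, and 2116 and 1487 in the whole epithelium library. Against cycling cells they were 532 and 453, 73 and 132, and 1517 and 727 in the GFP library, and 183 and 113, 30 and 30, and 1089 and 602 in the whole epithelium library. For the GFP library over the whole epithelium library they were 329 and 246, 52 and 36, and 782 and 624. Against cycling cells with at least 2 Lgr5 UMIs, 314 genes were higher in the GFP library and 154 lower in the whole epithelium library. There the lower count was 107 by the mean of per-cell CPM, 120 without cells carrying other markers and 82 without the 5% of cells with most UMIs. The cause of these shifts beyond the filter was not tested.

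Log2 ratios that turned were those of Hbb-bs (-0.69), Hba-a1 (-2.37) and Hba-a2 (-0.73) against cycling cells in the whole epithelium library without cells carrying other markers, which removes the 1 cell that held most haemoglobin RNA. With at least 2 Lgr5 UMIs, Hbb-bs was at -1.45 and Hba-a1 at -1.55 there. Between libraries, with at least 2 Lgr5 UMIs, Cxcl9 was at 0.12 and Sval1 at -0.25, and Gcg was at 0.71 in Lgr5-negative mucin-low cells without cells carrying other markers. Of 158 called genes named against Lgr5-negative mucin-low cells in the GFP library, 145 to 158 were still past 2-fold under each alternative and none turned. Least stable was the GFP library over the whole epithelium library, where 54 of 64 were with at least 2 Lgr5 UMIs, the setting in which 2 turned, and 59 of 68 by the mean of per-cell CPM. The lowest counts elsewhere were 120 of 126 against Lgr5-negative mucin-low cells of the whole epithelium library, 78 of 87 against cycling cells of the GFP library, 48 of 51 against those of the whole epithelium library, where 3 turned, and 61 of 63 between libraries in Lgr5-negative mucin-low cells, where 1 turned. In the splits of Lgr5-detected cells of the whole epithelium library, leaving out cells carrying other markers gave 60 lower genes by Kit, against 11 with them, and 4 lower genes by Lgr5 UMIs, against 20. With 53 cells in the GFP library, genes near 20 CPM rest on few molecules.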
